A study of Mus musculus with 79 samples.

Results

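The genes described here are the 5 members of the AP-2 transcription factor family, Tfap2a, Tfap2b, Tfap2c, Tfap2d and Tfap2e, together with Satb1. They were taken by name from the adult hypothalamus RNA-seq table, where they make up 6 of 25965 rows, and were selected on their RNA and histone marks in these same libraries, as earlier results on them were known when they were listed. The values below are therefore a description of these genes, and their rows in genome-wide fits are given as such. RNA and 3 histone modifications were measured in the hypothalamus of mice of about 14 weeks on a C57BL/6 background. The +/+ animals carried wild-type alleles of Dnmt3a. In the Δ/D329A animals the maternal Dnmt3a allele (Δ) lacked exon 18 after recombination of loxP sites by Cre driven in oocytes by the Zp3 promoter, and the paternal allele carried the D329A missense mutation in the PWWP domain, so that the mutant protein was the only functional DNMT3A. Animals with a single one of these alleles are not analysed here, so that loss of one Dnmt3a allele and the point mutation cannot be told apart. RNA-seq covered 5 +/+ and 4 Δ/D329A animals, and ChIP-seq of H3K27me3, H3K4me3, H3K36me3 and input covered 3 animals of each genotype. The study gives the RNA-seq animals as female and the ChIP-seq animals as male, so that RNA and marks were not measured in the same mice. In the libraries, Xist RNA was 13.9 to 24.05 RPKM with 0 or 1 read of 4 Y-linked genes, while ChIP input over chromosome X was 0.415 to 0.429 times that over autosomes, with reads on chromosome Y.

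AP-2 factors are transcription factors that bind GC-rich sites and are best known from the early ectoderm, the neural crest, the limb and the retina. Tfap2a and Tfap2c act early in the surface ectoderm and neural crest, Tfap2b in the neural crest, kidney and sympathetic neurons, Tfap2d in the dorsal midbrain and retina, and Tfap2e in the olfactory bulb. Satb1 is a chromatin organiser that binds AT-rich DNA and is known from thymocytes and from cortical interneurons. H3K27me3 is laid down by Polycomb repressive complex 2 over silent developmental genes, H3K4me3 marks CpG-rich promoters, and H3K36me3 follows transcribed gene bodies. The PWWP domain of DNMT3A has been described to bind H3K36me2 and H3K36me3 in vitro. The study proposes that DNMT3A does not necessarily depend on this binding in vivo. The comparison of genotypes asks what happens to RNA and to these marks at the genes when the PWWP domain is mutated.

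DNMT3A methylates cytosines that are followed by guanine. The sequences below show where such CG pairs, in capitals, lie before RefSeq starts of 4 Tfap2 genes and in an H3K4me3 peak of Satb1. The Tfap2b stretch lies outside the promoter window used below, and the H3K4me3 peaks inside Tfap2a are not shown. All are RefSeq or genome sequence of GRCm38.p6, written along the strand of the gene. RefSeq start entries were found for 5 of the 6 genes. The 250 bases before a start are shown for 4 Tfap2 genes that lie in H3K27me3 domains, at chr13:40734921-40735170 (minus strand) for Tfap2a, chr1:19211804-19212053 (plus strand) for Tfap2b, chr1:19102772-19103021 (plus strand) for Tfap2d and chr4:126736270-126736519 (minus strand) for Tfap2e.
Tfap2a upstream: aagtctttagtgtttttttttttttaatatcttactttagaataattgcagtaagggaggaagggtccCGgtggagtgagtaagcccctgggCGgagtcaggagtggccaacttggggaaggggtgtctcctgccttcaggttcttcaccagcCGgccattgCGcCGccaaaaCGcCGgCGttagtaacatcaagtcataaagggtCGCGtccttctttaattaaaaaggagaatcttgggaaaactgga
Tfap2b upstream: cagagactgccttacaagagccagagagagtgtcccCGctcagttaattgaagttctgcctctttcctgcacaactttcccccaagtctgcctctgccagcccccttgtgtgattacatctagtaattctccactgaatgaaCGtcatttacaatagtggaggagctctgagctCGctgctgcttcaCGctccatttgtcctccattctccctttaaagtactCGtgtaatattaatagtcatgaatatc
Tfap2d upstream: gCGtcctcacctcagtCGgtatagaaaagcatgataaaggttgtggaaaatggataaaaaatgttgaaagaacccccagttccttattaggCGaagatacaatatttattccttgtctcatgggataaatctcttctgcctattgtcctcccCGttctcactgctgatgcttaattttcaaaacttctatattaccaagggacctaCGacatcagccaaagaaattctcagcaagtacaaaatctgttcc
Tfap2e upstream: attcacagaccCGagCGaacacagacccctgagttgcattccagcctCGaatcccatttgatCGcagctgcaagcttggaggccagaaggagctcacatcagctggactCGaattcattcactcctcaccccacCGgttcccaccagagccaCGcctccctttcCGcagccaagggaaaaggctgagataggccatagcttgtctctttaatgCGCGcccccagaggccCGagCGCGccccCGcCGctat
These hold 10, 5, 5 and 15 CG pairs, against a median of 6 over the same 250 bases of 32841 RefSeq promoters. The last sequence is 300 bases from the middle of the H3K4me3 peak at the start of Satb1 (chr17:51832851-51833150, minus strand). This peak was lower in every Δ/D329A library, as were 8.49% of all H3K4me3 peaks, and its ratio without Δ/D329A replicate 1 is given below.
Satb1 H3K4me3 peak: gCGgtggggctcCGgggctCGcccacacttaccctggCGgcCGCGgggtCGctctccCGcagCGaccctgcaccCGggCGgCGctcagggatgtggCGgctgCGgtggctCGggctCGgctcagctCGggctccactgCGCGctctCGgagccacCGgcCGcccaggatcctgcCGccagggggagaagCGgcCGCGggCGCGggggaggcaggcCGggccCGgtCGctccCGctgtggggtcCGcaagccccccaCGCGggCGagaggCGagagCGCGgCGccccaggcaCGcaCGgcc
The Satb1 stretch holds 42 CG pairs, but differs in length and position from the 250 bases before the starts. The middle 300 bases of the H3K4me3 peaks inside Tfap2a hold 37 (10.8 kb into the gene) and 20 (2.8 kb). The AP-2 motif GCCNNNGGC, searched on both strands, on which it reads the same, occurs in 13.73% of RefSeq promoters. Of the 12 RefSeq starts of these genes, 1 had a match, a start of Satb1, and the 300 bases of the Satb1 peak held 3 matches. The bases before that start overlap the peak stretch, and 1 match lies in both. The share over all promoters is matched to the peak stretch, which is 80% G and C, neither in length nor in base composition.

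The RNA-seq libraries held 5617932 to 9976687 reads on genes in +/+ and 3874084 to 6598737 in Δ/D329A, and the ChIP-seq libraries 12676361 to 30207875 uniquely mapped reads. Neuropeptide genes that define hypothalamic neurons summed to 366 to 767 RPKM in +/+ and 431 to 639 RPKM in Δ/D329A, so that markers of the labelled tissue were present. A single ChIP library stood apart from its group, the H3K4me3 library of Δ/D329A replicate 1, whose median tile had 0.314 RPM against 0.0789 to 0.200 RPM in the other 5, and the ratios of H3K4me3 described below are also given without it. The H3K27me3 and H3K4me3 libraries also differed in coverage of the mitochondrial genome, which was higher in +/+ replicate 3 and Δ/D329A replicates 2 and 3 than in the other 3 animals. The gene-level RNA table resolves neither the deleted exon nor the point mutation and was not used to check the genotype labels.

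All 5 Tfap2 genes were close to silent in the adult hypothalamus of both genotypes. The highest count of any of them in any of the 9 libraries was 6 reads, and each stayed below 0.1 RPKM in every library. None could enter the genome-wide test of RNA, and 5560 of 25952 genes had no read at all.

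Tfap2a (chr13:40715675-40733823, minus strand) had 0, 0, 0, 0 and 2 reads in the +/+ libraries and 2, 0, 3 and 1 in the Δ/D329A libraries. Tfap2c (chr2:172549593-172558622, plus strand) had 0, 0, 1, 1 and 0 reads against 2, 0, 3 and 3. Tfap2b (chr1:19208914-19238734, plus strand) had 1, 6, 0, 1 and 3 reads against 5, 6, 6 and 3. For all 3 genes the groups overlapped, and the Δ/D329A libraries held more of the reads although their pooled depth was lower. Single libraries of the genotypes overlapped in depth. Relative to the pooled 33650523 and 20935584 reads on genes, the rate in Δ/D329A was 4.82 times that in +/+ for Tfap2a (2 against 6 reads, 95% counting interval 0.862 to 48.9). It was 6.43 times as high for Tfap2c (2 against 8 reads, 1.28 to 62.1) and 2.92 times as high for Tfap2b (11 against 20 reads, 1.33 to 6.75). These intervals cover counting error alone and not the spread between animals. Low counts as a class leaned the same way. Of the 3851 genes with 2 to 31 reads in all, 61.67% had a higher rate in Δ/D329A, and among the 2835 of these with a read in both genotypes the median ratio was 1.378. The ratio reached that of Tfap2a in 10.09% of them, that of Tfap2b in 20.25% and that of Tfap2c in 5.503%.

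Tfap2d (chr1:19103022-19166346, plus strand) had 0, 3, 0, 1 and 0 reads in +/+ and 0 in all 4 Δ/D329A libraries. Tfap2e (chr4:126716006-126736240, minus strand) had 0 reads in all 5 +/+ libraries and 0, 0, 2 and 0 in Δ/D329A. As a count of 0 allows up to 3 reads, no fold is given for either gene, and a difference was not detectable at this depth.

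**Figure D1:**
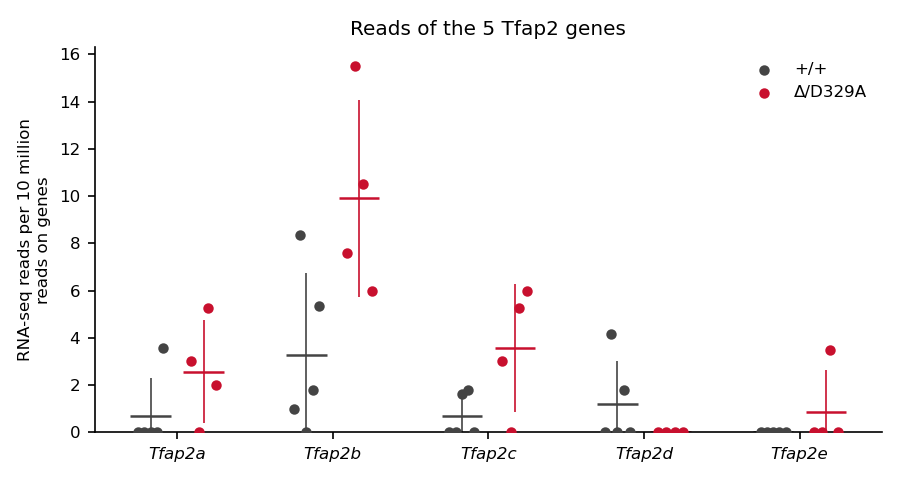
RNA-seq reads of the 5 Tfap2 genes relative to the reads on genes of the library (vertical axis) in each library, 5 +/+ (grey) and 4 Δ/D329A (red), with the mean (horizontal line) and SD (vertical line). The groups overlap for every gene, and no point stands for more than 6 reads.

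The promoters of the Tfap2 genes were among those with the most H3K27me3 in the genome. Over the window from 1500 bp before to 500 bp after the start, their +/+ means were 5.79 to 6.96 RPM (reads in a 2000 bp tile relative to all uniquely mapped reads), which placed them at ranks 102 to 259 of 25952 promoters, whose library medians were 0.437 to 0.503 RPM. In Δ/D329A the mark was lower at 4 of the 5 promoters in every library than in any +/+ library, with differences in the mean of -12.4% to -28.8%. The same was true of 7.31% of all promoters, and of 7.71% of the 7720 promoters with a +/+ mean of at least 1 RPM. No share was computed among promoters as strongly marked as these. Strongly marked tiles were fewer genome-wide in Δ/D329A, with some overlap. Tiles at 5 RPM or more were 0.220, 0.194 and 0.246% of all tiles in +/+ and 0.145, 0.151 and 0.207% in Δ/D329A. The promoters stayed strongly marked in Δ/D329A, between the 97.61 and 99.62 percentile.

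Tfap2b had the largest difference of the promoters. Its H3K27me3 was 6.17, 6.03 and 6.37 RPM in +/+ and 4.47, 4.32 and 4.44 RPM in Δ/D329A, a difference in the mean of -28.8%. The 3 libraries of a genotype lay close together and the groups were well apart. Relative to the input of the same animal, H3K27me3 was 5.50 to 10.15 in +/+ and 5.87 to 7.38 in Δ/D329A, with overlap. The difference was -26.7% among the libraries with low and -31.3% among those with high mitochondrial coverage. In the limma fit over all promoters its log2 difference was -0.48 with SE 0.08 and an adjusted p of 0.313, and the adjusted p was 0.0542 in limma over promoters with a mean of at least 0.5 RPM and 0.0332 by the edgeR quasi-likelihood test on reads of the tile nearest the start. At the RefSeq start of Tfap2b, which lies further into the gene, H3K27me3 was 7.74, 7.03 and 7.88 RPM in +/+ against 5.04, 6.30 and 6.45 RPM in Δ/D329A.

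At the Tfap2a promoter H3K27me3 was 6.92, 6.82 and 7.14 RPM in +/+ and 6.32, 5.52 and 6.45 RPM in Δ/D329A. At that of Tfap2d it was 6.58, 6.64 and 6.32 RPM against 5.34, 5.92 and 5.05 RPM. At that of Tfap2e it was 5.41, 6.33 and 5.63 RPM against 5.01, 4.62 and 4.54 RPM. These 3 promoters were lower in every Δ/D329A library, with differences in the mean of -12.4%, -16.5% and -18.4%. At the Tfap2c promoter the groups overlapped, with 6.48, 7.60 and 6.67 RPM in +/+ and 5.71, 6.07 and 6.83 RPM in Δ/D329A. Relative to the input of the same animal, the genotypes overlapped at the promoters of Tfap2a, Tfap2d and Tfap2e. At that of Tfap2c the ratio to input was 10.59 to 11.71 in +/+ and 5.39 to 8.13 in Δ/D329A, without overlap. Input at the Tfap2c promoter was itself higher in every Δ/D329A library. Limma over all promoters called 0 of 25952 for H3K27me3 (0% called), while 2309 had an unadjusted p under 0.05, 222 were called by limma over promoters with a mean of at least 0.5 RPM, and edgeR called 245. The edgeR count was made up of 192 promoters that were higher and 53 that were lower in Δ/D329A.

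**Figure D2:**
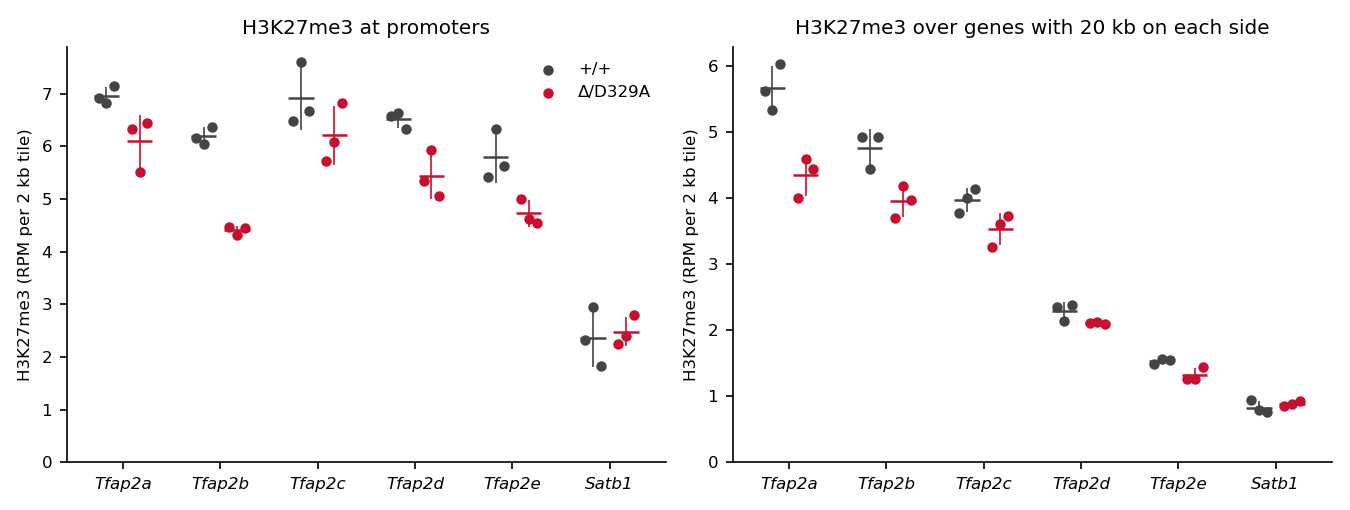
H3K27me3 in RPM per 2 kb tile (vertical axis) at the promoters (left) and over the genes with 20 kb on each side (right) of the 6 genes, with each of 3 +/+ (grey) and 3 Δ/D329A (red) libraries as a point, the mean as a horizontal line and the SD as a vertical line. The red points lie below the grey ones at 4 of 5 Tfap2 promoters and over all 5 Tfap2 loci, and the colours overlap for Satb1.

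The domains around the Tfap2 genes differed in breadth. Of the 58 tiles, each overlapping the next by 1000 bp, from 20 kb before to 20 kb after Tfap2a, 55 had a +/+ mean of at least 2 RPM. This was so of 55 of 70 tiles for Tfap2b and 45 of 49 for Tfap2c, whose domains cover the whole gene, but of 33 of 103 for Tfap2d and 17 of 60 for Tfap2e, where tiles at this level lay around the start and over the first part of the gene. In Δ/D329A the numbers were 48, 52, 42, 34 and 15. The domains of Tfap2b to Tfap2e thus kept their outline in both genotypes, as their profiles show. That of Tfap2a had a low point in Δ/D329A in the tile 10.8 kb into the gene, with 4.59 RPM in +/+ and 1.52 RPM in Δ/D329A.

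Averaged over the gene with 20 kb on each side, H3K27me3 was lower in every Δ/D329A library than in any +/+ library at all 5 Tfap2 loci, against 13.2% of all 25952 loci and 9.89% of the 6521 with a +/+ mean of at least 1 RPM. No share was computed among loci as strongly marked as these. Tfap2a had the largest difference. Its locus had 5.62, 5.33 and 6.02 RPM in +/+ and 3.995, 4.59 and 4.44 RPM in Δ/D329A, or -23.3%. The Tfap2b locus had 4.92, 4.44 and 4.92 RPM against 3.70, 4.19 and 3.97 RPM, or -16.98%. The other 3 loci differed by -7.75% (Tfap2d) to -14.0% (Tfap2e), and at Tfap2d the gap between the groups was narrow, with 2.35, 2.13 and 2.38 RPM against 2.11, 2.13 and 2.10 RPM. Input at the Tfap2d locus was also lower in every Δ/D329A library, with a difference in the mean of -3.31%, and the part of this in the H3K27me3 value was not tested. By limma over all loci the log2 differences of the Tfap2 loci were -0.11 to -0.38 with adjusted p values of 0.191 to 0.503. No locus was called (0% called), with 3453 at an unadjusted p under 0.05.

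Single tiles locate the lower H3K27me3. Among tiles with a mean of at least 1 RPM, a limit chosen after the profiles had been seen, 33 of 58 were lower without overlap at Tfap2a, 27 of 68 at Tfap2b, 13 of 49 at Tfap2c, 14 of 69 at Tfap2d and 3 of 20 at Tfap2e, against 5.85% of all 619947 such tiles. The reverse, higher in every Δ/D329A library, held for 1 tile at Tfap2d and for 6.23% of all such tiles. Neighbouring tiles share reads, and no share was computed among tiles as strongly marked as these. As given above, tiles at 5 RPM or more were fewer genome-wide in Δ/D329A, with some overlap. Leaving out 1 library makes it easier for groups not to overlap and raised the count at Tfap2b to 41 without Δ/D329A replicate 2, at Tfap2d to 24 without +/+ replicate 2 and at Tfap2e to 11 without Δ/D329A replicate 3 and to 5 without +/+ replicate 1 or 2.

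**Figure D3:**
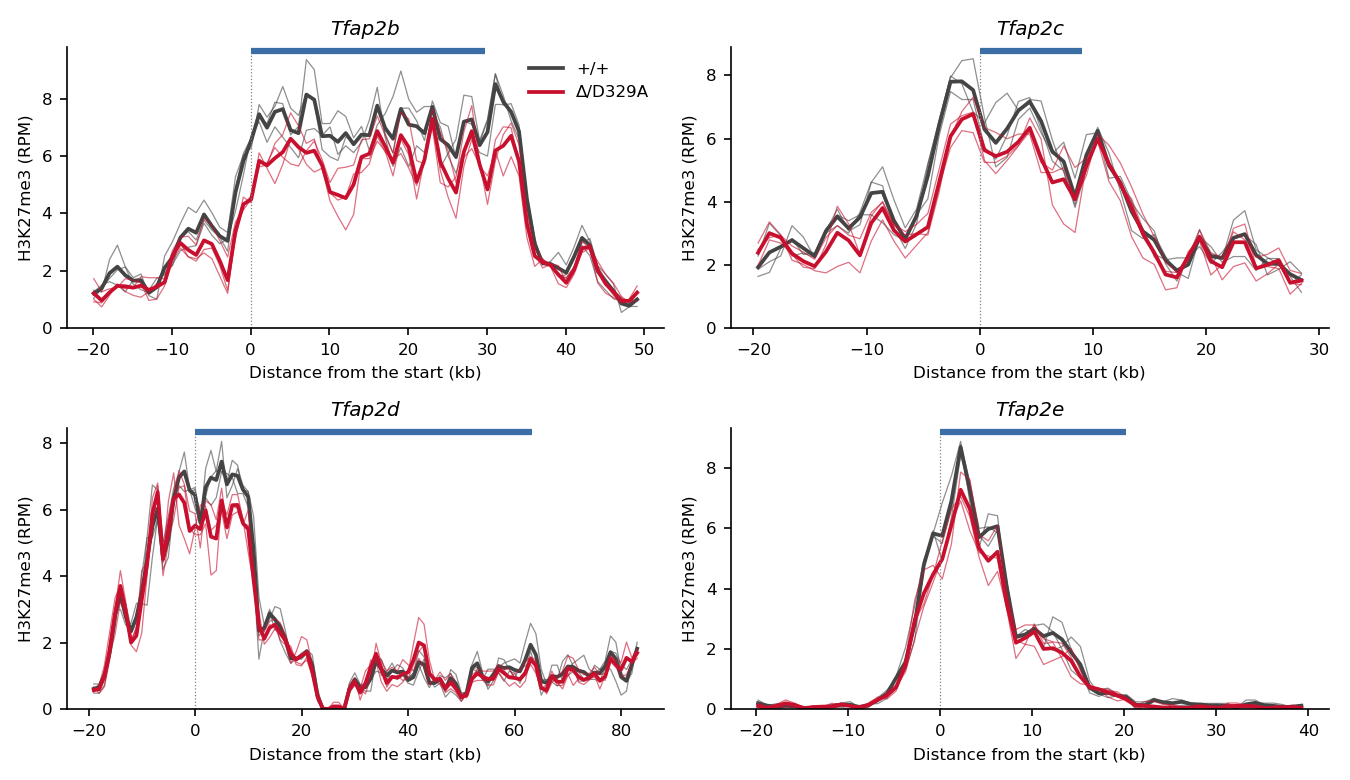
H3K27me3 in RPM (vertical axis) in 2 kb tiles by distance in kb from the start of Tfap2b, Tfap2c, Tfap2d and Tfap2e along the direction of transcription (horizontal axis), with thin lines for libraries, thick lines for the means of 3 +/+ (grey) and 3 Δ/D329A (red) libraries, and a blue bar for the gene. The highest +/+ tile mean was 7.45 RPM (Tfap2d) to 8.70 RPM (Tfap2e), and the red means follow the same outline at a lower level.

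Tfap2a was the Tfap2 gene whose marks differed most by these measures. Its H3K4me3 differed inside the gene, where further annotated starts of Tfap2a transcripts lie, rather than in the promoter window used here. H3K27me3 was lower in both, and by more inside the gene. Over the gene body H3K27me3 was 5.36, 5.42 and 5.75 RPM in +/+ and 2.89, 3.84 and 3.198 RPM in Δ/D329A, or -39.9%. H3K4me3 over the same body was 1.53, 1.33 and 1.49 RPM against 3.13, 2.82 and 3.23 RPM, or 2.11 times as high (2.09 times without Δ/D329A replicate 1). All 3 Δ/D329A libraries were above all +/+ libraries for H3K4me3, as in 2.14% of all gene bodies, and below them for H3K27me3, as in 14.7%. No share was computed among gene bodies as rich in H3K27me3 as this one. Input over the body was 0.709 RPM in the mean of +/+ and 0.725 RPM in that of Δ/D329A, with overlap.

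The H3K4me3 lay in 2 peaks. The larger, 10.8 kb into the gene, overlaps a coding exon of Tfap2a and the annotated start of Gm47061, a gene on the opposite strand. It had 6.77, 6.58 and 7.55 RPM in +/+ and 13.2, 14.5 and 17.2 RPM in Δ/D329A, a ratio of 2.15. H3K27me3 in this tile was 4.47, 4.38 and 4.91 RPM in +/+ and 0.807, 2.29 and 1.47 RPM in Δ/D329A, or -66.8%. No library of one genotype reached the range of the other for either mark. The smaller peak, 2.8 kb into the gene (chr13:40730001-40732000), holds the starts of a pair of annotated Tfap2a transcripts. It had 3.42, 2.59 and 2.63 RPM in +/+ and 8.47, 6.07 and 8.58 RPM in Δ/D329A, a ratio of 2.68, with H3K27me3 at 4.61 ± 0.575 (SD, n = 3) against 3.42 ± 0.483 RPM (SD, n = 3).

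Among 29605 H3K4me3 peaks of the genome, taken as local maxima of the tiles with a mean of at least 1.5 RPM, the median ratio was 0.945 and 1.62% were higher in every Δ/D329A library. A ratio above that of the larger Tfap2a peak was seen in 0.270% of them and above that of the smaller in 0.112%. Without the H3K4me3 library of Δ/D329A replicate 1 the ratios were 2.27 and 2.55. Among libraries with low mitochondrial coverage H3K4me3 at the larger peak differed by 98.2% and among those with high coverage by 110%, and H3K27me3 there by -81.8% and -61.7%. Peaks and tiles were picked after their values had been seen, so that these are descriptions.

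Of the tiles of Tfap2a with a mean H3K4me3 of at least 1 RPM, 7 of 9 were higher in every Δ/D329A library, against 2.29% of all 141165 such tiles. The count was 7 or 8 when any 1 library was left out. Over the whole locus H3K4me3 was 0.651, 0.585 and 0.595 RPM in +/+ and 1.31, 1.01 and 1.22 RPM in Δ/D329A, higher in every Δ/D329A library as in 1.2% of all loci and 1.83 times as high without Δ/D329A replicate 1. The limma fit gave a log2 difference of 0.84 with SE 0.12 and an adjusted p of 0.389, in a fit that called 11 of 25952 loci (0.0424% called). The adjusted p was 0.0218 after input was subtracted on the log2 scale. The promoter window, which ends before the smaller peak, did not show the difference, with 1.26, 0.998 and 0.887 RPM in +/+ and 1.13, 1.30 and 0.807 RPM in Δ/D329A. Tfap2a RNA had 0 to 3 reads per library, in other animals and of the other sex. The RNA-seq libraries are described as strand-specific, and Tsix, whose last exon overlaps Xist on the opposite strand, had 0.0188 to 0.0884 RPKM, so that reads were counted by strand and those of Gm47061 would not enter Tfap2a.

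**Figure D4:**
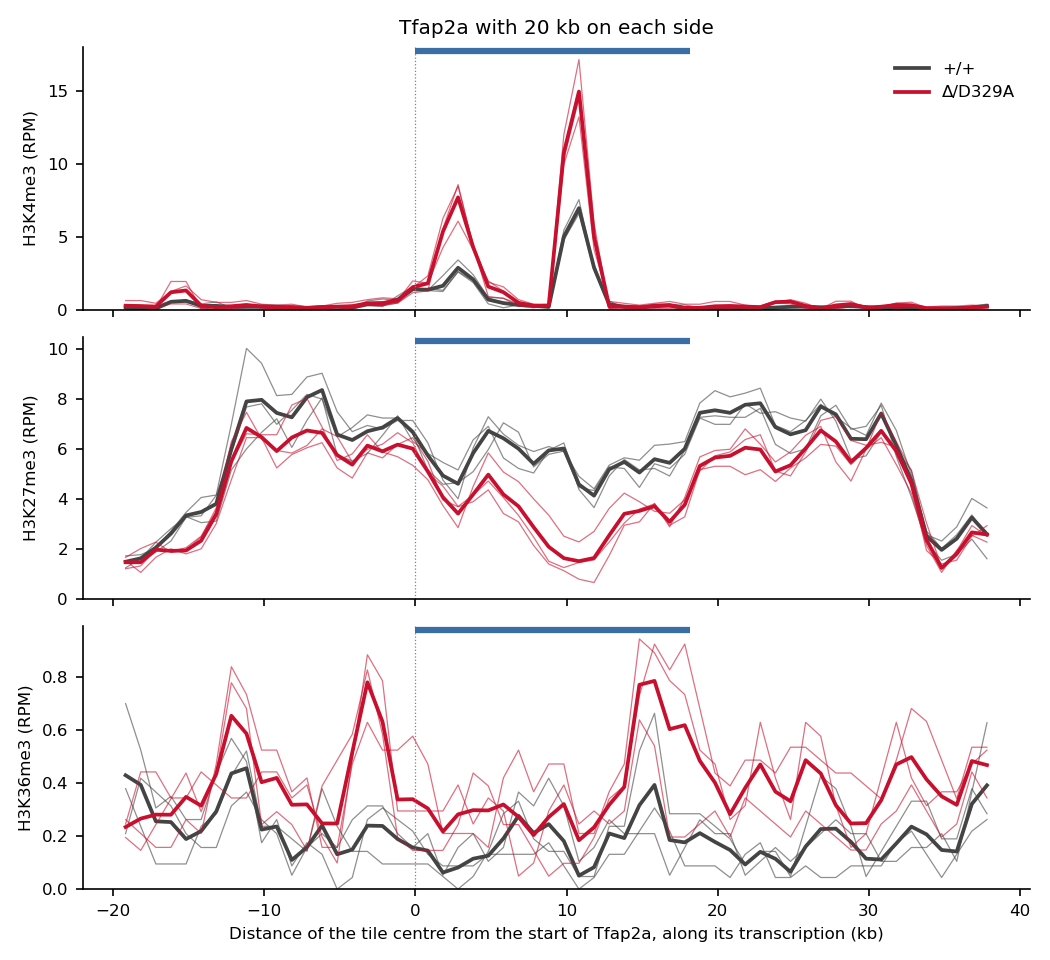
H3K4me3 (top), H3K27me3 (middle) and H3K36me3 (bottom) in RPM (vertical axes, each with its own scale) in 2 kb tiles over Tfap2a with 20 kb on each side, by distance in kb from its start (horizontal axis), with thin lines for libraries, thick lines for the means of 3 +/+ (grey) and 3 Δ/D329A (red) libraries, and a blue bar for the gene. The H3K4me3 peak at 10.8 kb reaches 6.97 RPM in +/+ and 15.0 RPM in Δ/D329A, where H3K27me3 has its low point within the gene in Δ/D329A.

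The other Tfap2 genes had little H3K4me3. The promoters of Tfap2b and Tfap2d had +/+ means of 0.218 and 0.182 RPM, that of Tfap2c had 0.554 RPM and that of Tfap2e had 0.967 RPM, all far below the library medians over all promoters of 4.05 to 5.88 RPM. Tfap2e was lower in every Δ/D329A library, with 0.854, 0.865 and 1.18 RPM in +/+ and 0.345, 0.71 and 0.516 RPM in Δ/D329A. Tfap2c was lower as well, with 0.569, 0.665 and 0.427 RPM against 0.376, 0.0789 and 0.0645 RPM, at levels no higher than 1.03 times the input of the same animal. Without Δ/D329A replicate 1 the differences in the mean were -36.6% at Tfap2e and -87.0% at Tfap2c, still without overlap. Input at the Tfap2c promoter was higher in every Δ/D329A library, at 0.622 against 0.942 RPM in the mean, and its part in the marks at this promoter was not tested. A lower value in every Δ/D329A library was found at 4.22% of all promoters. The limma fit of H3K4me3 called 0 of 25952 promoters (0% called), with 900 at an unadjusted p under 0.05, 277 called by limma over promoters with a mean of at least 0.5 RPM and 144 by edgeR. Tfap2b had a small H3K4me3 peak 2.9 kb before its start, of 1.88 RPM in +/+ and 1.92 RPM in Δ/D329A, at which H3K27me3 was 3.05 ± 0.336 (SD, n = 3) against 1.67 ± 0.705 RPM (SD, n = 3).

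H3K36me3 was low at the Tfap2 genes in both genotypes. Over Tfap2a with 20 kb on each side it was 0.179, 0.218 and 0.215 RPM in +/+ and 0.415, 0.322 and 0.424 RPM in Δ/D329A, or 1.90 times as high, while library medians over all loci were 0.745 to 0.767 RPM. Input at this locus was 0.838 and 0.824 RPM, so that H3K36me3 stayed below input in either genotype. The loci of Tfap2b (0.349 against 0.481 RPM), Tfap2c (0.502 against 0.588 RPM) and Tfap2d (0.431 against 0.542 RPM) were likewise higher in every Δ/D329A library. The groups overlapped at Tfap2e (1.35 against 1.32 RPM), whose window reaches into the transcribed genes Psmb2 and Ncdn. Thus 4 of 5 Tfap2 loci were higher without overlap, against 9.79% of all loci. The H3K36me3 libraries also differed genome-wide. Tiles at 5 RPM or more were 0.0641 to 0.0764% of all tiles in +/+ and 0.0452 to 0.0560% in Δ/D329A. Library medians over all promoters were 0.237 to 0.262 RPM against 0.268 to 0.341 RPM, while those over all loci overlapped. The part of this in the values of the Tfap2 loci was not tested. In limma over all loci the log2 difference at Tfap2a was 0.68 with SE 0.10 and an adjusted p of 0.107, and 8 loci were called (0.0308% called). After the libraries were centred on their medians 340 loci were called, Tfap2a among them with an adjusted p of 0.000486, and without Δ/D329A replicate 2 the adjusted p of Tfap2a was 0.0204. At the promoters of Tfap2c (0.0385 against 0.250 RPM) and Tfap2d (0.205 against 0.410 RPM) H3K36me3 was also higher in every Δ/D329A library, as at 8.99% of all promoters, and the fit over promoters called 6 (0.0231% called), none of these genes.

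Satb1 (chr17:51736187-51833290, minus strand) differed from the Tfap2 genes in being transcribed, rich in H3K4me3 and lower in H3K27me3. Its RNA was 2.34, 2.005, 2.21, 1.63 and 1.57 RPKM in the +/+ libraries, from 318 to 542 reads, and 1.51, 1.46, 1.60 and 1.47 RPKM in Δ/D329A, from 194 to 278 reads. The 4 Δ/D329A values lay together at the lower end of the +/+ range and overlapped it by 1 library. The mean log2 RPKM was 0.945 ± 0.259 (SD, n = 5) against 0.594 ± 0.060 (SD, n = 4). In the limma fit the log2 difference was -0.35 with SE 0.17 and an adjusted p of 0.355, and the fit called 19 of 17839 genes (0.107% called, at an adjusted p under 0.01). On recovered reads the adjusted p of Satb1 was 0.078 by edgeR and 0.0285 by DESeq2, so that Satb1 was called by none of the 3. In bulk tissue fewer cells that express a gene and less RNA per cell cannot be told apart.

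H3K4me3 at the Satb1 promoter was 16.9, 15.2 and 16.5 RPM in +/+ and 10.6, 14.2 and 14.1 RPM in Δ/D329A, or -19.7% (-12.4% without Δ/D329A replicate 1). Over the locus it was 1.70, 1.67 and 1.67 RPM against 1.26, 1.38 and 1.33 RPM, or -21.5% (-19.6% without that library), with the +/+ libraries almost equal and all Δ/D329A libraries below them, as in 3.23% of all loci. The log2 difference over the locus was -0.33 with SE 0.05 and an adjusted p of 0.720 by limma. Among tiles of Satb1 with a mean of at least 1 RPM, 10 of 21 were lower in every Δ/D329A library, against 8.63% of all such tiles. The count was 10 to 14 when any 1 library was left out, and 12 without Δ/D329A replicate 1.

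Satb1 has several alternative starts, and its H3K4me3 peaks differed unequally. The peak at the first start, 0.3 kb into the gene, had 23.8, 21.9 and 23.4 RPM in +/+ and 14.9, 20.3 and 19.4 RPM in Δ/D329A, a ratio of 0.790, and is the peak whose sequence is shown above. The highest peak, 20.3 kb into the gene beside an internal start, had 35.2, 36.8 and 38.0 RPM against 26.0, 38.0 and 34.1 RPM, with overlap. A small peak 26.3 kb into the gene had 3.61, 4.59 and 3.35 RPM against 2.07, 2.21 and 2.52 RPM, a ratio of 0.589. The peak at 72.3 kb, at the start of C230085N15Rik, had 11.1, 10.3 and 12.6 RPM against 5.21, 12.2 and 8.65 RPM, also with overlap. In each of the 4 peaks Δ/D329A replicate 1, the library of higher background, was the lowest value. Without it the ratios were 0.862, 0.983, 0.614 and 0.918 in the order given, and the promoter differed by -33.7% among libraries with low and -13.9% among those with high mitochondrial coverage. Of all peaks 8.49% were lower in every Δ/D329A library, and the median ratio over all peaks was 0.945. Ratios below those of the 4 peaks, with all libraries kept, were seen in 15.7, 30.9, 3.33 and 13.2% of all peaks, in the order given.

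H3K27me3 at the Satb1 promoter was 2.33, 2.94 and 1.83 RPM in +/+ and 2.25, 2.41 and 2.79 RPM in Δ/D329A, above most promoters but with the groups mixed. Over the locus it was 0.830 ± 0.095 (SD, n = 3) against 0.887 ± 0.040 RPM (SD, n = 3). Of its 45 tiles with a mean of at least 1 RPM, 7 were higher and 1 was lower in every Δ/D329A library, while among all such tiles the shares were 6.23% and 5.85%. The 7 became 15 without +/+ replicate 1 and 13 without Δ/D329A replicate 1. H3K36me3 over the body of Satb1 was 0.997, 1.03 and 0.994 RPM in +/+ and 0.966, 0.957 and 0.962 RPM in Δ/D329A, -4.40% in the mean and lower in every Δ/D329A library, as in 14.9% of all gene bodies.

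**Figure D5:**
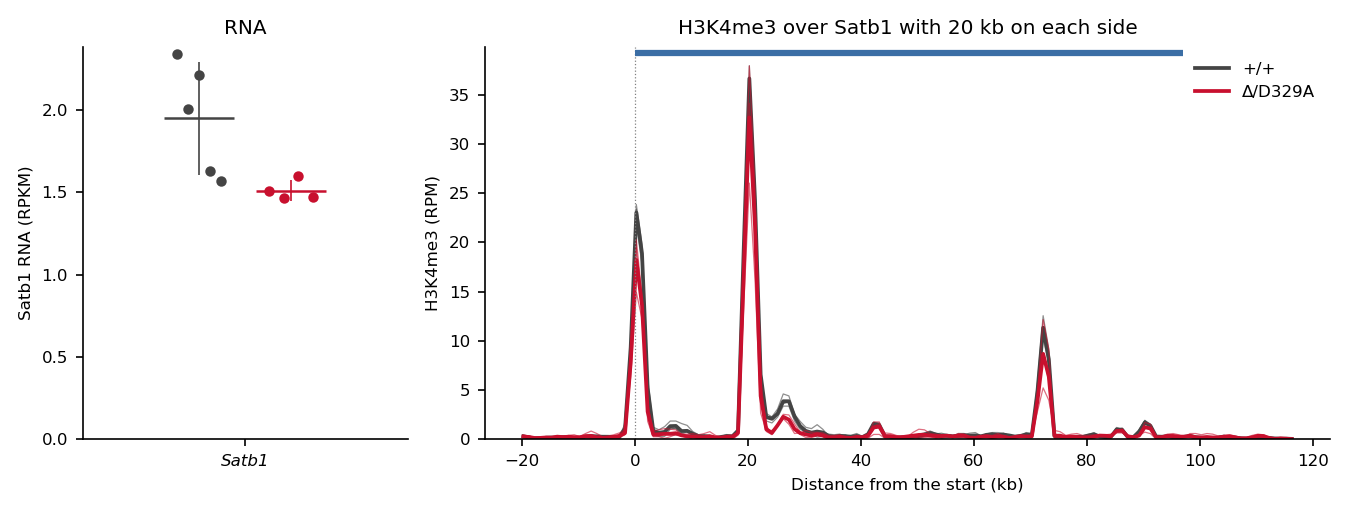
Satb1 RNA in RPKM (left, vertical axis) in 5 +/+ (grey) and 4 Δ/D329A (red) libraries with mean and SD, and H3K4me3 in RPM in 2 kb tiles (right, vertical axis) by distance in kb from the start of Satb1 (horizontal axis), with thin lines for libraries, thick lines for the means of 3 libraries, and a blue bar for the gene. The RNA groups overlap by 1 library, and the mean of the first H3K4me3 peak is 23.0 RPM in +/+ and 18.2 RPM in Δ/D329A.

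The genes whose RNA followed Satb1 most closely within genotypes were Clpb, Slc9a7 and Oxt. The measure was Pearson's r of the deviations of log2 RPKM from the genotype means over the 9 libraries, which share their depth and composition, and it was 0.997, 0.993 and 0.993. An r above 0.9 was found for 11.79% of the 17839 genes, so that these 3 stand in a broad group. None was called between genotypes in the limma fit (adjusted p of 0.639 to 0.991).

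Genes that share the windows of the Tfap2 genes showed no called difference. Gm9979, inside the Tfap2a window, had 0 reads in +/+ and 2 in Δ/D329A, and Gm15825, which overlaps the start of Tfap2d on the opposite strand, had 0 in both. The promoter of Gm15825 shares the H3K27me3 domain of Tfap2d and had 6.82 ± 0.641 against 5.58 ± 0.713 RPM (SD, n = 3 each). Psmb2, a proteasome subunit gene, Ncdn, which encodes neurochondrin, and AU040320 flank Tfap2e and were expressed at 4.38 to 140 RPKM in +/+ and 4.54 to 99.3 RPKM in Δ/D329A, with log2 differences of 0.04, 0.11 and -0.14 and adjusted p values of at least 0.853 by limma. The H3K4me3 peak shared by Ncdn and AU040320 was 48.2 RPM in +/+ and 47.1 RPM in Δ/D329A.

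Genes known to work with or downstream of these factors were compared with the 0.107% called among all genes tested. Of 9 AP-2 cofactors and inhibitors tested, 0 were called, and their median log2 difference was 0.07, that of all genes tested being 0.06. Kctd1 and Kctd15, which inhibit AP-2 activity, had the largest differences of that list (0.54 and 0.25). Of the 10 neural crest and melanocyte genes downstream of AP-2, 7 could be tested and 1 was called. This was Dct, which encodes dopachrome tautomerase of melanin synthesis, with 0.030 to 0.105 RPKM in +/+ and 1.39 to 2.90 RPKM in Δ/D329A, a log2 difference of 4.97 with SE 0.38 and a limma adjusted p of 0.000203. Of other melanocytic genes, Pmel had a log2 difference of -1.06 with an adjusted p of 0.355, Mlana had no read in any library and passed the filter at its floor value, and Tyrp1 was too low to be tested. Msx1, a homeobox gene of the neural crest, had the next largest difference of the list (1.30, adjusted p 0.355), and the median of the list was 0.08. Of 6 catecholamine genes downstream of AP-2, 2 could be tested and 0 were called, with Th, the first enzyme of dopamine synthesis, at 0.88 and Ddc, the next enzyme, at 0.10.

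Of 9 Satb1 partners tested 0 were called, the median being -0.06, with Pml at 0.41 and the remodelling ATPase Smarca5 at -0.24. Of 7 interneuron genes that are commonly found beside Satb1 0 were called either, the median being -0.04, with Npy at -0.70 and Lhx6 at 0.68. RNA of other cell types was measured with marker lists, summed in RPKM. Meningeal and melanocytic genes gave 7.05 to 20.01 in +/+ and 10.6 to 23.9 in Δ/D329A, with 0 of 7 called and Igf2 at 0.75. Choroid plexus genes gave 1.91 to 3.07 against 2.65 to 6.27, with 0 of 4 called, Ttr higher in every Δ/D329A library (1.82, adjusted p 0.187), as were 1.78% of all genes tested, Kcnj13 at 1.12 and Folr1 at 0.08. Kl, the fourth gene of that list, was lower in every Δ/D329A library (-0.43, adjusted p 0.355), as were 1.23% of all genes tested. Dorsal midbrain and habenula genes gave 5.93 to 14.1 against 5.70 to 9.95, with 1 of 4 called, Pou4f1 (5.28 with SE 0.47, adjusted p 0.000607), and Tac2 at -0.36. Cortical projection neuron genes gave 1.63 to 2.67 against 2.02 to 3.19, with 0 of 4 called, Tbr1 higher in every Δ/D329A library (1.97, adjusted p 0.119) and Fezf2 at -0.59. T cell genes gave 0.432 to 0.689 against 0.369 to 0.741, with 0 of 1 called, Lck at -0.01 and Cd3g without a read. Anterior pituitary genes gave 0.632 to 17 against 3.23 to 11.8, with 0 of 5 called, Gh at 1.93 and Prl at -1.06. Of the 10 neuropeptide genes 0 were called, with Pomc at -1.06 and Crh at 0.71. The part of these cell types in the values of the Tfap2 genes and Satb1 was not tested.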

How the data were processed

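RNA-seq (50 base single-end reads of rRNA-depleted RNA) and ultra-low-input native ChIP-seq, from 2.5% of a hypothalamus per immunoprecipitation, were processed by the authors against GRCm38. The submitters' processing notes name Trim Galore 0.4.3, Bowtie2 2.3.2 and HISAT2 2.0.5. Expression was deposited by the authors as log2 RPKM per gene, from their RNA-seq quantitation in SeqMonk, with a gene without a read set at 0.9 reads. ChIP-seq was deposited as signal, read coverage in RPM, in 2725549 tiles of 2000 bp at steps of 1000 bp. The authors left out 1 further Δ/D329A RNA-seq library. Replicates were individual animals.

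Whole reads were recovered from both tables (within 0.02 and 0.01 reads). Genes of the mitochondrial genome (13) were left out. RNA was tested with limma 3.58.1 (eBayes with trend) for the 17839 genes that reached 0.1 RPKM in 4 or more libraries (adjusted p under 0.01). Promoters and loci were tested by the same method on log2(RPM + 0.1), over all genes (adjusted p under 0.05). P-values were adjusted by Benjamini-Hochberg over all features tested, two-sided. edgeR 4.0.16 and DESeq2 1.42.0 were run on recovered reads as alternatives. The fits were tested on simulated data. There limma over all promoters gave the right direction but seldom called a doubling, which edgeR and limma over promoters with a mean of at least 0.5 RPM mostly did, so that its counts of 0 promoters carry little weight. An exact permutation test of 3 against 3 libraries cannot go below 0.1, and none is reported.

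The genes and lists were chosen with earlier results of these data known. The genes named were the 6 members, genes that overlap their windows, the 3 genes most like Satb1, and, of each list, genes called and the 2 with the largest absolute difference. Gm47061, C230085N15Rik, Cd3g, Mlana, Tyrp1, Folr1, Kl, Xist and Tsix were named after their values had been seen. Intervals are exact and cover counting error only. Sequences are from RefSeq and GRCm38.p6, transcript starts from the Ensembl annotation of GRCm38.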

Additional observations from a re-analysis of the deposited data

Results flagged for a closer look

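Of 60 groups of 4 or 5 libraries examined, 1 held a library far from the others: Pomc, a hypothalamic neuropeptide gene listed as a tissue marker, had a log2 RPKM of 5.118 in +/+ replicate 1 against 3.264 to 3.57 in the other 4 +/+ libraries, a gap of 0.835 of the range of the group. Chance flags about 1 in 20 such groups.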

How the results depend on the processing

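None of the 6 genes was called by the main fits, and under alternatives 408 of 439 of their log2 differences kept their direction and their side of the threshold, 4 passed it and 27 turned sign without being called. The 4 were Tfap2b H3K27me3 at the promoter by edgeR (-0.57), Tfap2a H3K4me3 over the locus minus input (0.86) and Tfap2a H3K36me3 over the locus after median centring (0.67) and without Δ/D329A replicate 2 (0.78). The cause was not tested. Satb1 RNA was -0.43 to -0.28 over all libraries left out. Signs turned at the promoters for Satb1 H3K27me3 (-0.041 by edgeR, -0.079 to 0.25 leaving out libraries), Tfap2a H3K4me3 (-0.33 minus input, -0.11 to 0.20), Tfap2d H3K4me3 (0.48 by edgeR, 0.18 with mitochondrial coverage as a block, -1.18 to 0.18), Tfap2b H3K36me3 (-0.089 after median centring, -0.24 to 0.38), Tfap2e H3K36me3 (-1.04 by edgeR) and Satb1 H3K36me3 (-0.24 to 0.16). They turned over the loci for H3K4me3 of Tfap2b (-0.060 to 0.34), Tfap2c (0.22 with mitochondrial coverage as a block, -0.53 to 0.16), Tfap2d (-0.27 to 0.24) and Tfap2e (-0.30 to 0.019), and for Tfap2e H3K36me3 (-0.074 to 0.026). Leaving out the H3K4me3 library of Δ/D329A replicate 1 gave -0.060, -0.27 and 0.019 at the loci of Tfap2b, Tfap2d and Tfap2e.

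The count of called genes in RNA-seq was 19, against 11 at 0.5 RPKM, 34 after median centring (22 higher and 12 lower, against 15 and 4), 77 by edgeR (40 and 37), 246 by DESeq2 (130 and 116) and 11 to 18 leaving out libraries. H3K27me3 promoters were 0, against 222 with a mean of at least 0.5 RPM, 54 after median centring and 245 by edgeR, and 0 leaving out any library. H3K27me3 loci were 0, against 95 after median centring and 0 to 25 leaving out libraries. H3K4me3 promoters were 0, against 277 with a mean of at least 0.5 RPM, 28 after median centring and 144 by edgeR, and 0 leaving out any library. H3K4me3 loci were 11, against 17 minus input and 0 leaving out any library. H3K36me3 promoters were 6, against 1 with a pseudocount of 0.5 RPM, 0 with a mean of at least 0.5 RPM, 0 minus input, 0 after median centring, 1 by edgeR and 5 to 19 leaving out libraries. H3K36me3 loci were 8, against 14 with a pseudocount of 0.5 RPM, 0 minus input, 340 after median centring and 0 to 116 leaving out libraries. They were 0 with the animals blocked as for H3K27me3 and H3K4me3, a grouping that mitochondrial coverage of the H3K36me3 libraries did not follow. Median centring moved the median log2 difference from -0.07 to 0.14 at H3K4me3 promoters and from 0.11 to -0.10 at H3K36me3 promoters.

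The labels do not say whether replicate numbers pair the animals, and the values were mixed. Correlations of deviations between samples of the same number were 0.137 to -0.05 for RNA-seq and -0.63 to 0.65 for H3K4me3 loci. They were 0.0125 to 0.0775 for H3K27me3 promoters, where each +/+ sample was closest to its own number, and 0.0559 to 0.252 for H3K27me3 loci, where 2 of 3 were, so that not every pair passed 0.1. With a replicate block the counts were 16 genes for RNA-seq, 0 for H3K27me3 promoters and loci, 0 for H3K4me3 loci, 0 for H3K36me3 promoters and 0 for H3K36me3 loci, and Satb1 RNA was -0.43. Depth limits the Tfap2 RNA values, which rest on 0 to 6 reads per library.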
